A study of Mus musculus with 8 samples.

Results

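The ER translocation and unfolded protein response genes are 33 of the 53655 named genes in the deposited count table, chosen by name for their roles at the endoplasmic reticulum (ER). They comprise 23 genes of folding, degradation and stress signalling and 10 genes of the translocon and signal peptidase. They were described in bulk RNA sequencing libraries of tuft cells, the chemosensory epithelial cells of the gut, sorted from the small intestine of naïve mice. All animals carried the genotype Il25-RFP/+;Chat-GFP(Tg+), so controls and compared cells share both reporters. The Il25-RFP reporter marks tuft cells, and the Chat-GFP transgene marks cells that express Chat, the enzyme that makes acetylcholine. Cells that were CD45-, EPCAM+ and Il25-RFP+ were divided into Chat-GFP- cells (Chat-neg, 4 libraries) and Chat-GFP+ cells (Chat-pos, 4 libraries). The groups are therefore defined by a transgenic reporter and not by Chat protein. The sources used here give neither the age of the mice nor the animal behind each library, so p-values measure the spread between libraries, which may be partly technical.

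Proteins destined for secretion or membranes enter the ER through the Sec61 channel, helped by the translocon-associated proteins (the Ssr subunits), and the signal peptidase complex removes their signal peptide. Inside, chaperones such as BiP (Hspa5) and disulfide isomerases fold them, and proteins that fail to fold are returned to the cytosol for degradation. When unfolded proteins accumulate, the sensors IRE1, PERK and ATF6 start the unfolded protein response: IRE1 splices Xbp1 mRNA, PERK favours translation of Atf4, whose targets include Ddit3, Trib3, Chac1 and Asns, and ATF6 and XBP1 raise chaperone and degradation genes. ATF6 and XBP1 act through short promoter sequences called ER stress response elements.

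The promoters of the members are shown first because the response is known to act on its target genes through these elements. RefSeq promoter windows (build GRCm38.p6) were matched for 28 of the 33 members, leaving Hyou1, Manf, Sec61a1, Spcs3 and Ssr2 without one. Both strands were searched for the elements known as ERSE, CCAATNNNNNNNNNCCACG, and ERSE-II, ATTGGNCCACG. These motifs do not contain one another. One or the other was found in 9 of 28 members (32.1%), against 49 of 27025 genes in the whole promoter table (0.181%). All 9 were among the 21 stress members with a window, and 0 of the 7 translocon and signal peptidase members with a window held either motif. The 49 genes include the 9 members. Because the stress members were listed as genes of a response known to act through these elements, the contrast is not independent evidence. A match is a description of the letters, and not evidence that a factor binds. The elements found are listed 5′ to 3′ in the direction of the motif, with the fixed bases of the motif in capitals, so that the spacers can be compared:
Hspa5: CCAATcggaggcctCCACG
Hsp90b1, distal element: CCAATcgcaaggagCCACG
Hsp90b1, proximal element: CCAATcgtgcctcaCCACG
Calr: CCAATgagggtcgaCCACG
Creld2: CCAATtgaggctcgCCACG
Dnajc3: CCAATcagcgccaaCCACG
Pdia6: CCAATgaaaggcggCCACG
Syvn1: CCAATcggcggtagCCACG
Dnajb11, ERSE-II: ATTGGcCCACG
Herpud1, ERSE-II: ATTGGgCCACG

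The elements of Calr and Creld2 and the proximal element of Hsp90b1 lay on the strand opposite to the gene. The middle of the Hspa5 element lay 56 bases before the RefSeq start site, that of Syvn1 35 bases, and those of Hsp90b1 203 and 98 bases. By the RefSeq start sites, the Dnajb11 motif alone lay after the start, 12 bases into the transcript. The stretch before the RefSeq start site is given for the stress chaperones Hspa5 and Hsp90b1 and, as a translocon promoter with no match, for Sec61b. Capitals mark the fixed bases of an element, written on the strand of the gene. The Hspa5 stretch is chr2:34771840-34772089 on the plus strand, and the GENCODE annotation starts the gene inside it, at 34771970. By that start the Hspa5 element lies inside the gene. GENCODE also starts Hsp90b1, at 86705509, and Sec61b, at 47474658, inside the stretches given here. The Hsp90b1 stretch is chr10:86705445-86705694 on the minus strand, and the Sec61b stretch is chr4:47474411-47474660 on the plus strand:
Hspa5: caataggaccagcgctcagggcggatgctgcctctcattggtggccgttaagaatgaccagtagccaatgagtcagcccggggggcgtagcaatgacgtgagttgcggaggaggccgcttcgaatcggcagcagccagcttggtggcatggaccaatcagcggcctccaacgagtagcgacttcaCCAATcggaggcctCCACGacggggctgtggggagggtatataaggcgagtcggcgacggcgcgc
Hsp90b1: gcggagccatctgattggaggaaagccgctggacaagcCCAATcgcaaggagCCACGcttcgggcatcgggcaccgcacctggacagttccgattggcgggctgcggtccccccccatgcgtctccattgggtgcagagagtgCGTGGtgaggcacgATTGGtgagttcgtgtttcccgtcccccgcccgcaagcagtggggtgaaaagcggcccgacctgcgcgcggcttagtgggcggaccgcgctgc
Sec61b: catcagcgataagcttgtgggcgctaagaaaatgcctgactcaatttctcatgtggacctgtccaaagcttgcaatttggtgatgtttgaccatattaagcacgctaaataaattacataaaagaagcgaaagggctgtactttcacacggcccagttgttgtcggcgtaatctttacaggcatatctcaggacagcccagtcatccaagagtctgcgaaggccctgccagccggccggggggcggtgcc

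The libraries differed in depth and in the cells they held. Counts in named genes ran from 87642 to 1176880 in Chat-neg and from 1757401 to 2541955 in Chat-pos, so 1 count was worth 11.6 CPM (counts scaled to a common library size, with TMM factors) in Chat-neg replicate 1 and 0.421 CPM in Chat-pos replicate 4. Chat stood at 105, 113, 150.2 and 101 CPM in Chat-neg and 315, 289.8, 356 and 361 CPM in Chat-pos (log2 difference 1.46 ± 0.21 (SE), edgeR adjusted p = 6.28e-05), which checks the gate. Il25, the gene behind the sort reporter, was also higher in Chat-pos (1.12 ± 0.26, edgeR adjusted p = 0.00884). Summed over 10 tuft cell markers the level was 8249 to 13500 CPM in Chat-neg and 17090 to 18040 CPM in Chat-pos. Chat-pos replicates 2 and 3 stood apart with 57600 and 31350 CPM of Paneth cell markers, where the other 6 libraries held 486 to 3518 CPM. Olfactory and vomeronasal receptor genes, which gut epithelium is not known to use broadly, gave 392 to 4200 CPM in Chat-neg and 160.3 to 315 CPM in Chat-pos, highest in Chat-neg replicate 1. Fewer cells of a type and less RNA per cell cannot be told apart in such bulk samples.

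ER translocation and unfolded protein response genes were expressed in both populations, and 0 of the 30 members that passed the filter on low counts were called different between Chat-pos and Chat-neg, which does not show that their levels are equal. Each gene was tested by the quasi-likelihood method of edgeR, and p-values were adjusted by Benjamini-Hochberg over the 8919 genes tested, with a threshold of 0.05. Over all genes the same test called 3.62% higher and 2.87% lower in Chat-pos, or 6.49% in either direction, so that a count of 0 among 30 genes is near the background share. DESeq2 and limma-voom also called 0 members. At an unadjusted p under 0.05 there were 5 members (16.7%), Calr, Dnajb9, Pdia6, Ddit3 and Sec61g, against 20.8% of all genes tested. Differences below are log2(Chat-pos/Chat-neg), with the standard error of the edgeR coefficient. The members' median was -0.13, with 11 positive and 19 negative values, beside a median of -0.02 and 51.5% negative values over all genes. The extremes were Edem1 at -0.70 and Ddit3 at 0.49.

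The intervals give the differences the data allow. The 95% confidence interval of the difference lay within 2-fold in either direction for 26 of the 30 members, against 3818 of 8919 genes tested. The 4 whose intervals reached beyond 2-fold were Pdia4, Pdia6, Edem1 and Asns. That of Pdia6 did so only just, with a lower end of -1.02. Groups without overlap in CPM were found for Dnajb9 (Chat-pos higher) and Edem1 (Chat-pos lower). That is 1 member in each direction, where 8.58% and 5.42% of all genes tested had such groups in the higher and lower direction.

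**Figure D1:**
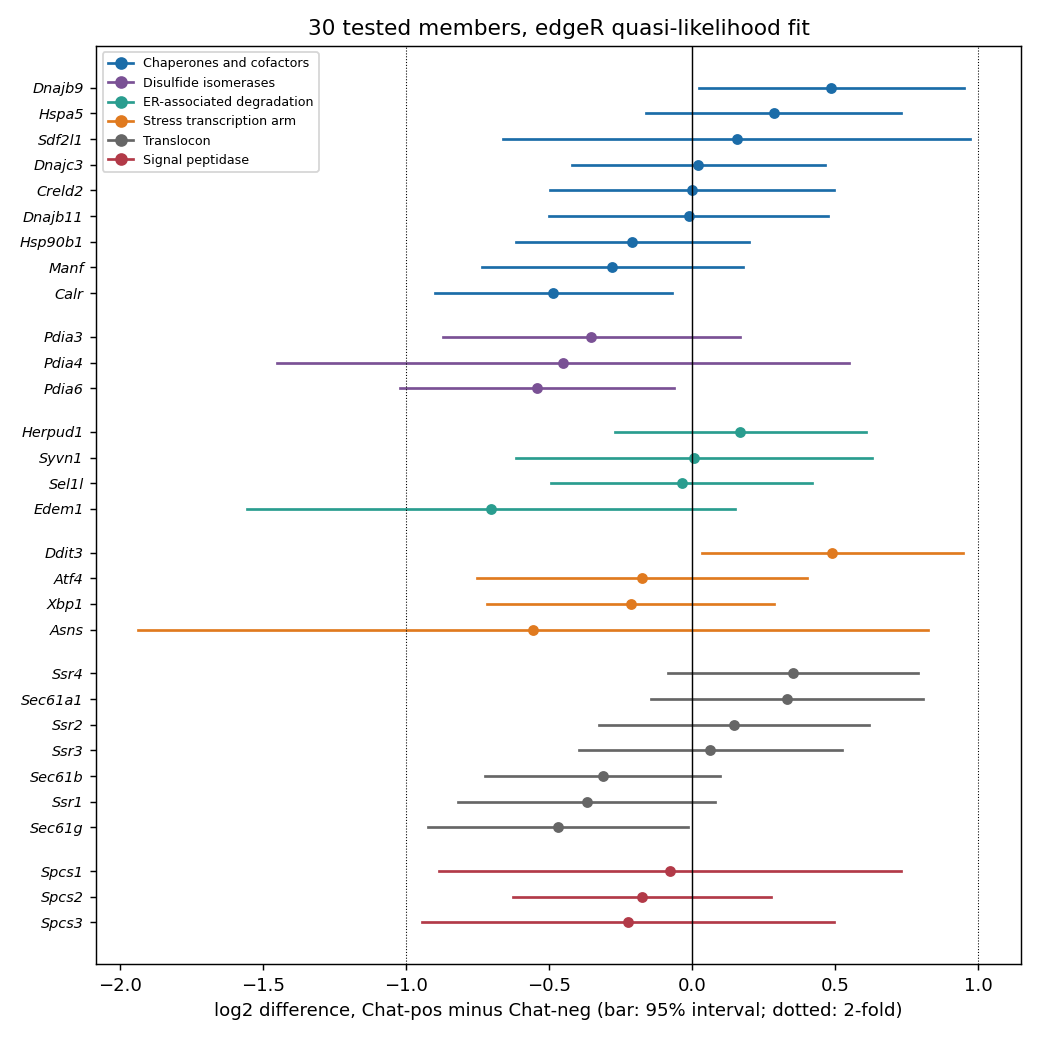
Log2 difference in expression (Chat-pos over Chat-neg, horizontal axis) of the 30 tested members by role, with 95% confidence intervals as bars. Values ran from -0.70 for Edem1 to 0.49 for Ddit3, and no member passed the adjusted threshold.

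**Figure D2:**
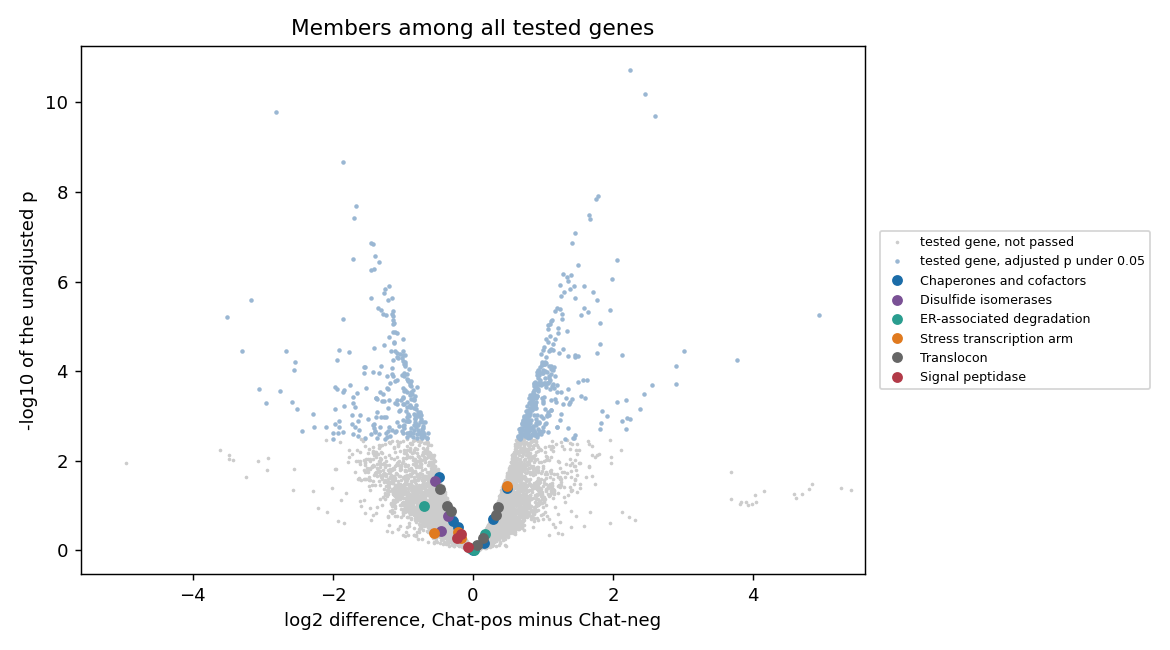
Minus log10 of the unadjusted p (vertical axis) against the log2 difference, Chat-pos minus Chat-neg (horizontal axis), for the 8919 genes tested, with the 30 members coloured by role. All members lie below the genes that passed, while 323 genes were called higher and 256 lower in Chat-pos.

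Of the 10 chaperones and co-chaperones, 9 were tested, with 4 positive and 5 negative values and a median of 0.00. Hspa5 (chromosome 2, 34771970 to 34777547, GRCm38), the main ER chaperone and the best known readout of the unfolded protein response, stood at 302.5, 592, 635 and 478 CPM in Chat-neg and 556, 652, 569.9 and 720.4 CPM in Chat-pos. The lowest of the 8 values was that of the shallow Chat-neg replicate 1, and the groups overlapped. The means were 502 ± 149 and 624 ± 76.8 CPM (SD, n = 4 each), a difference of 0.29 ± 0.22 with an edgeR adjusted p of 0.507 and a 95% interval of -0.16 to 0.73. Hsp90b1, which encodes the ER member of the HSP90 family, stood at 430.5, 382, 546 and 436 CPM in Chat-neg and 424, 384, 376 and 373 CPM in Chat-pos. The Chat-pos values were close together and inside the range of Chat-neg or just under it (-0.21 ± 0.20, edgeR adjusted p = 0.608).

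Calr (chromosome 8, 84841850 to 84846934), the calcium-binding lectin chaperone of glycoproteins, stood at 256, 330.0, 268.5 and 209 CPM in Chat-neg and 222, 187, 194 and 160.3 CPM in Chat-pos. The highest Chat-pos value overlapped the lowest Chat-neg value. Its difference of -0.49 ± 0.20 had an unadjusted p of 0.0231 and an edgeR adjusted p of 0.159, and a 95% interval of -0.90 to -0.07. Of all members under all 17 alternative settings, Calr came nearest to the threshold, with an adjusted p of 0.0513 when libraries were scaled by total count.

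Dnajb9 (chromosome 12, 44205559 to 44210326), a BiP co-chaperone also called ERdj4, stood at 58.2, 66.2, 59.6 and 56.2 CPM in Chat-neg and 74.7, 72.6, 90.7 and 101 CPM in Chat-pos. All Chat-pos libraries lay above all Chat-neg libraries, though the value of Chat-neg replicate 1 rested on 5 counts. The difference was 0.49 ± 0.23 (unadjusted p = 0.0403, edgeR adjusted p = 0.215). The gene shares 14 of its 2549 exon bases with a microRNA annotation on the opposite strand. The library kit does not mark strand, so the Dnajb9 count is uncertain to that small degree.

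The other co-chaperones and small ER stress factors lay near 0. Dnajb11 (-0.01 ± 0.24), Dnajc3 (0.02 ± 0.22) and Creld2 (0.00 ± 0.24) had edgeR adjusted p-values of 0.979 or more. Sdf2l1 was the lowest tested member of the group, at 8.92 to 22.5 CPM in Chat-neg and 11.8 to 25.0 CPM in Chat-pos (0.16 ± 0.40). Manf, a secreted factor retained in the ER by BiP, stood at 81.4, 122, 166 and 184 CPM in Chat-neg and 106, 104, 106 and 169 CPM in Chat-pos. Its Chat-pos replicate 4 stood apart from 3 nearly equal values (-0.28 ± 0.22, edgeR adjusted p = 0.529).

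Hyou1, the ER member of the HSP110 family and a nucleotide exchange factor for BiP, did not pass the filter. It stood at 23.3, 12.7, 6.04 and 6.42 CPM in Chat-neg and 3.73, 3.14, 3.31 and 3.37 CPM in Chat-pos. The groups did not overlap, but the values rested on 2, 10, 7 and 4 counts against 6, 7, 7 and 8 counts. Where a filter of 5 CPM in 4 libraries admitted it, the difference was -1.43 ± 0.63 (edgeR adjusted p = 0.194), and with no filter it was -1.27 (edgeR adjusted p = 0.354). Only Chat-neg libraries reached 5 CPM, so that filter admitted Hyou1 through the group where it was higher. The direction of the filtered difference was therefore favoured by the filter and is not independent evidence. Receptor genes of the olfactory and vomeronasal families, taken as a measure of scattered reads, averaged 0.273 to 2.92 CPM per gene in Chat-neg and 0.112 to 0.219 CPM in Chat-pos, again higher in Chat-neg, and their part in the Hyou1 values was not tested.

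All 3 disulfide isomerases had negative values, with a median of -0.45, and 0 passed (edgeR, 1 at an unadjusted p under 0.05). Pdia6 (chromosome 12, 17266545 to 17284770), which also regulates IRE1 and PERK signalling, stood at 46.5, 62.4, 90.6 and 70.6 CPM in Chat-neg and 46.0, 46.6, 60.5 and 45.4 CPM in Chat-pos. The groups overlapped, with the first Chat-neg library as low as most of Chat-pos. The difference was -0.54 ± 0.23, with an unadjusted p of 0.0282, an edgeR adjusted p of 0.177 and a 95% interval of -1.02 to -0.06.

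Pdia3, the isomerase that works with calreticulin on glycoproteins, stood at 58.2, 77.7, 172 and 117 CPM in Chat-neg and 70.9, 78.8, 123 and 88.4 CPM in Chat-pos. Replicate 3 was the highest in both groups, and the difference was -0.35 ± 0.25 (edgeR adjusted p = 0.472). Pdia4 was low in all libraries, at 7.64 to 16.4 CPM in Chat-neg and 3.78 to 12.5 CPM in Chat-pos (-0.45 ± 0.49). Chat-neg replicate 3, which gave the highest Pdia3, Pdia6 and Hsp90b1 values, also held the highest sum of 8 goblet cell markers, 5526 CPM against 308 to 2169 CPM in the other 7 libraries. Zg16 at 2706 CPM and Tff3 at 1974 CPM made up most of that sum. Muc2, Fcgbp and Clca1 were also highest there, but Agr2 and Spink4 were not, and Spdef had 0 counts. Without Chat-neg replicate 3 the difference was 0.03 for Pdia3 and -0.33 for Pdia6.

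The 4 genes of ER-associated degradation, which sends misfolded proteins to the proteasome, had 2 positive and 2 negative values, and 0 passed (edgeR, 0 at an unadjusted p under 0.05). Herpud1, an ER membrane protein strongly induced by ER stress, stood at 105, 239.5, 212 and 254 CPM in Chat-neg and 219.6, 278, 247 and 215 CPM in Chat-pos. Apart from the low value of Chat-neg replicate 1 the groups overlapped (0.17 ± 0.21, edgeR adjusted p = 0.722). Sel1l, which scaffolds the ubiquitin ligase Syvn1, stood at 69.8, 77.7, 86.3 and 77.02 CPM in Chat-neg and 94.6, 63.6, 85.5 and 66.9 CPM in Chat-pos. Its groups overlapped throughout (-0.04 ± 0.22, edgeR adjusted p = 0.957), and Syvn1 itself gave 0.01 ± 0.30.

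Edem1, a lectin that extracts misfolded glycoproteins from the folding cycle, stood at 34.9, 16.6, 18.1 and 16.1 CPM in Chat-neg and 8.09, 12.99, 11.8 and 11.8 CPM in Chat-pos. The groups did not overlap, and the high Chat-neg value was 3 counts in the shallowest library. The difference of -0.70 ± 0.42 had an edgeR adjusted p of 0.357 and a 95% interval of -1.56 to 0.15.

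The transcription factors and targets of the stress arms gave 1 positive and 3 negative values among the 4 tested, and 0 passed (edgeR, 1 at an unadjusted p under 0.05). Xbp1 (chromosome 11, 5520659 to 5525893) stood at 81.4, 85.4, 94.1 and 69.0 CPM in Chat-neg and 40.4, 71.7, 82.7 and 90.5 CPM in Chat-pos. Its groups overlapped, and the lowest value was that of Chat-pos replicate 1 (-0.21 ± 0.25, edgeR adjusted p = 0.685). Gene counts do not tell spliced from unspliced Xbp1 mRNA, so IRE1 activity was not measured.

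Atf4, the transcription factor of the integrated stress response, stood at 69.8, 326, 244 and 337 CPM in Chat-neg and 262.5, 256, 208 and 198 CPM in Chat-pos. Apart from the shallow Chat-neg replicate 1 the Chat-neg values lay within or above the Chat-pos range, and the difference was -0.18 ± 0.27 (edgeR adjusted p = 0.778). Without that library it was -0.37, with an edgeR adjusted p of 0.230. Because Atf4 is controlled mainly in translation, its mRNA is only one side of its activity.

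Ddit3 (chromosome 10, 127290774 to 127296288), which encodes the stress transcription factor CHOP, stood at 139.6, 102, 77.7 and 115.5 CPM in Chat-neg and 144, 136, 106 and 189.8 CPM in Chat-pos. The highest value was in Chat-pos and the lowest in Chat-neg, and the groups overlapped. The difference of 0.49 ± 0.22 had an unadjusted p of 0.0360, an edgeR adjusted p of 0.203 and a 95% interval of 0.03 to 0.94. With both Paneth-rich Chat-pos libraries left out it was 0.81, with an edgeR adjusted p of 0.0998.

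The other ATF4 targets among the members were low. Asns, asparagine synthetase, stood at 34.9, 17.8, 7.77 and 6.42 CPM in Chat-neg and 1.24, 18.4, 9.45 and 3.79 CPM in Chat-pos. The Asns values rested on 3, 14, 9 and 4 counts in Chat-neg and 2, 41, 20 and 9 counts in Chat-pos. Within Chat-pos the higher values were those of the Paneth-rich replicates 2 and 3 (-0.55 ± 0.66, edgeR adjusted p = 0.703), and without those libraries the difference was -2.10 (edgeR adjusted p = 0.192). The Chat-pos libraries left in that fit held 2 and 9 counts of Asns. Chac1, which degrades glutathione, had 0, 2, 1 and 1 counts in Chat-neg and 0, 21, 4 and 0 counts in Chat-pos, so its signal lay in the same libraries. Trib3, a pseudokinase, had 1 count in all Chat-neg libraries together and 5 counts in Chat-pos. Chat-pos replicates 2 and 3 also held more of the crypt stem and progenitor cell markers, mostly Olfm4. Those markers summed to 624.5 and 1138 CPM there, against 156.1 and 167 CPM in Chat-pos replicates 1 and 4. The part of Paneth cell or other crypt cell RNA in these values was not tested.

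**Figure D3:**
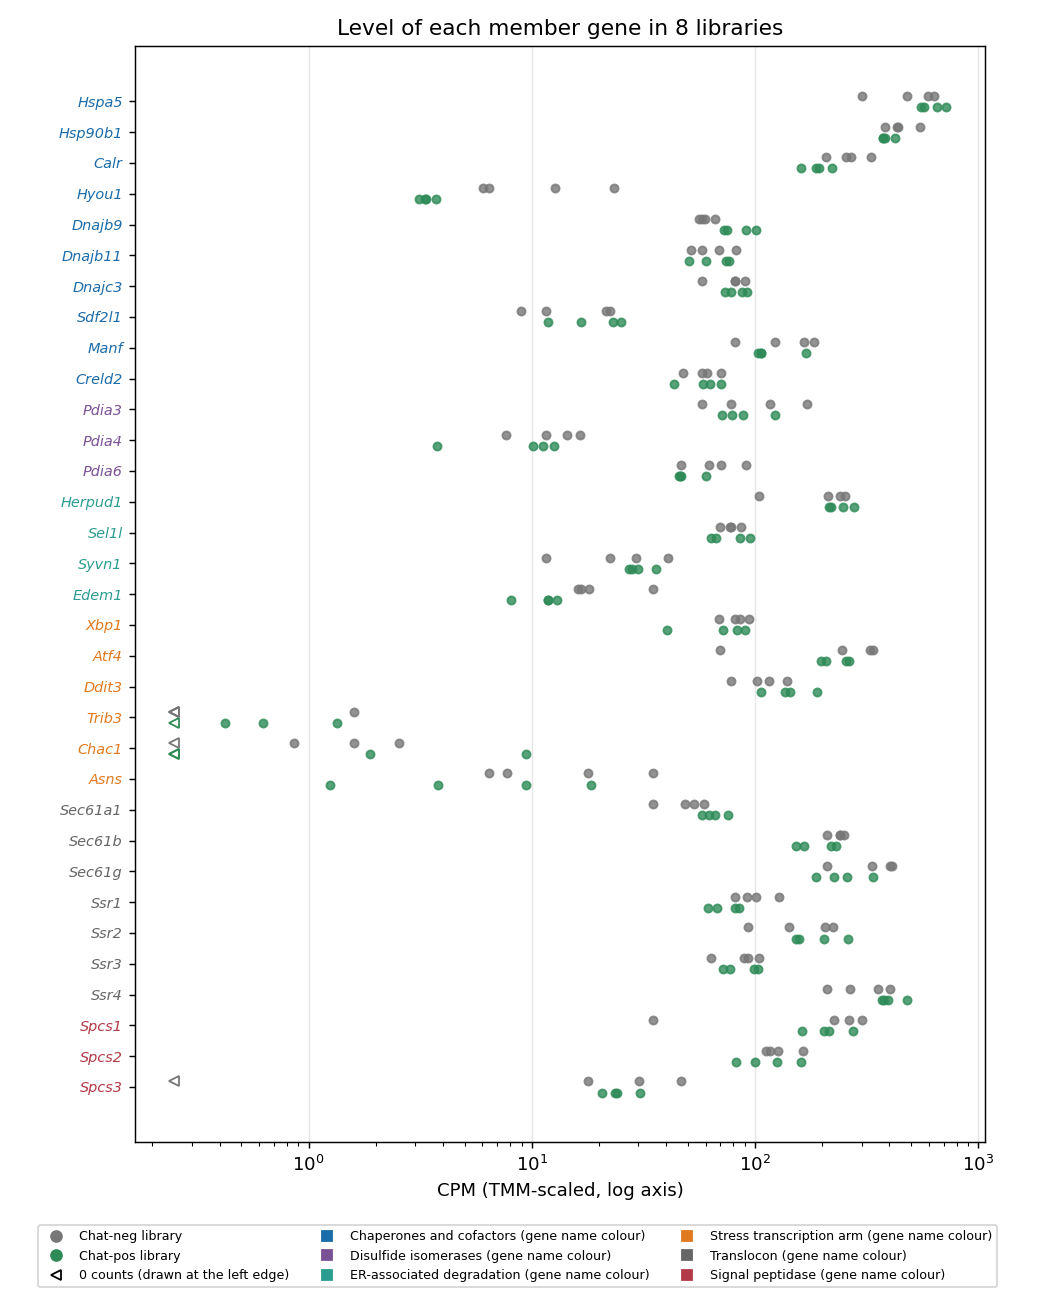
Expression of the 33 members in each library (horizontal axis, CPM on a log scale), with grey points for Chat-neg and green points for Chat-pos libraries and triangles for 0 counts. The groups overlap for most members, and the low Chat-neg point of several genes is the shallow replicate 1.

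The 7 translocon members had 4 positive and 3 negative values with a median of 0.06, and 0 passed (edgeR, 1 at an unadjusted p under 0.05). Sec61g (chromosome 11, 16500530 to 16508484), the small gamma subunit of the channel, stood at 209, 334, 404 and 411 CPM in Chat-neg and 336, 227, 188.5 and 259 CPM in Chat-pos. The groups overlapped, the lowest Chat-neg value being that of the shallow library. The difference was -0.47 ± 0.22, with an unadjusted p of 0.0433 and an edgeR adjusted p of 0.224.

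The beta subunit Sec61b stood at 209, 239.5, 251.2 and 241 CPM in Chat-neg and 231, 152, 165 and 218 CPM in Chat-pos (-0.31 ± 0.20, edgeR adjusted p = 0.407). The pore-forming Sec61a1 stood at 34.9, 48.4, 53.5 and 59.4 CPM in Chat-neg and 62.2, 57.8, 66.2 and 75.3 CPM in Chat-pos (0.33 ± 0.23, edgeR adjusted p = 0.461). The subunits of 1 channel thus gave values of both signs, none of which passed.

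Among the translocon-associated proteins, Ssr1 stood at 128, 81.5, 92.4 and 101 CPM in Chat-neg and 67.8, 61.8, 85.1 and 81.2 CPM in Chat-pos (-0.37 ± 0.22, edgeR adjusted p = 0.359). Ssr4 stood at 209, 266, 356.5 and 404 CPM in Chat-neg and 393, 376, 371 and 478 CPM in Chat-pos (0.35 ± 0.21, edgeR adjusted p = 0.369). Both pairs of groups overlapped at their edges, and Ssr2 (0.15 ± 0.23) and Ssr3 (0.06 ± 0.23) lay between.

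The 3 signal peptidase subunits had small negative values, and 0 passed (edgeR, 0 at an unadjusted p under 0.05). Spcs2 stood at 116, 112, 164 and 127 CPM in Chat-neg and 82.1, 125, 100.2 and 161 CPM in Chat-pos (-0.17 ± 0.22). Spcs1 stood at 34.9, 227, 301 and 265 CPM in Chat-neg and 204, 163, 215 and 276 CPM in Chat-pos (-0.08 ± 0.36). Spcs3 stood at 0, 17.8, 30.2 and 46.5 CPM in Chat-neg and 30.5, 20.6, 23.6 and 24.0 CPM in Chat-pos (-0.23 ± 0.35). The low values of Spcs1 and Spcs3 were those of Chat-neg replicate 1, where 3 counts, the limit that a count of 0 allows, come to 34.9 CPM.

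Summed over members, the stress genes took 2001, 2771, 2944 and 2737 CPM in Chat-neg and 2539, 2613, 2548 and 2720 CPM in Chat-pos. The translocon and signal peptidase genes took 1140, 1531, 1947 and 1970 CPM in Chat-neg and 1631, 1439, 1497 and 1937 CPM in Chat-pos. Both sums were lowest in Chat-neg replicate 1, and their group means were nearly equal: 2613 ± 418 and 2605 ± 83.4 CPM for stress genes, and 1647 ± 394 and 1626 ± 222 CPM for the other set (SD, n = 4 each). The stress sums of the other Chat-neg libraries all lay above those of Chat-pos, so the near equality of the stress means rests on the shallow replicate 1. In the other set the groups overlapped also without that library. The ratio of the stress sum to the other sum was 1.62 ± 0.199 in Chat-neg and 1.62 ± 0.178 in Chat-pos. The median difference of the stress members minus that of the translocon and signal peptidase members was 0.02. Library by library, the median log2 level of the tested stress members minus that of the other set, each gene centred on its mean over the 8 libraries, was 0.34, 0.17, -0.01 and -0.09 for Chat-neg replicates 1 to 4. For Chat-pos replicates 1 to 4 it was -0.12, 0.01, 0.05 and -0.425. The groups overlapped in this measure, with Chat-neg replicate 1 highest and Chat-pos replicate 4 lowest.

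**Figure D4:**
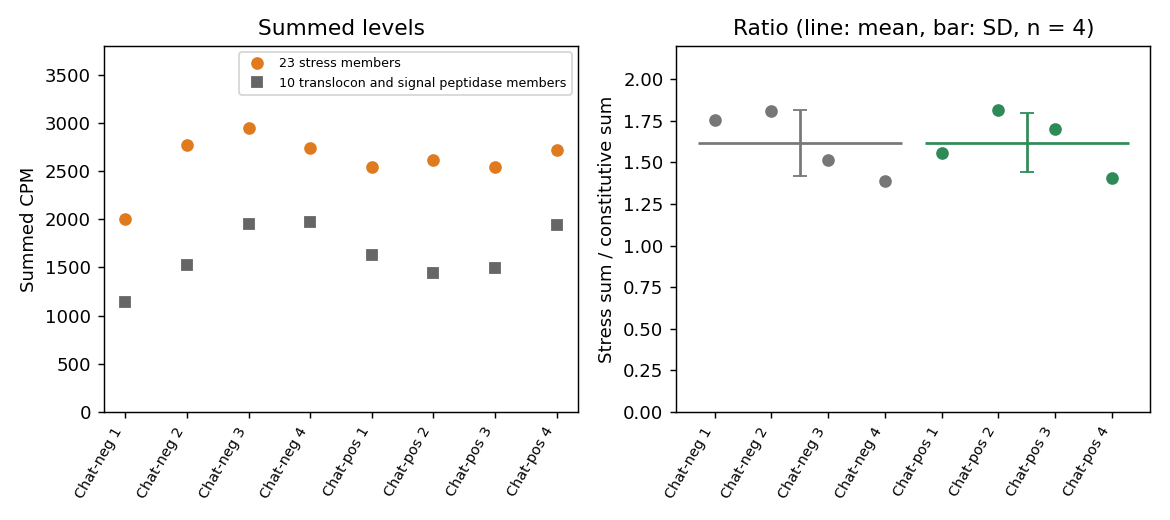
Summed CPM of the stress members and of the translocon and signal peptidase members in each library (left), and the ratio of the sums with group mean and SD (right). The Chat-pos libraries lie inside the range of Chat-neg in both sums, and Chat-neg replicate 1 is the lowest, at 2001 and 1140 CPM. The stress sums of the other Chat-neg libraries lie above all of Chat-pos.

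Per kilobase of exon, the levels spanned a wide range. Averaged over the 8 libraries, Sec61b was highest at 168 ± 28.6 CPM per kb (SD), followed by Spcs1 at 136 ± 54.1, Hspa5 at 133 ± 30.2, Sec61g at 120.1 ± 35.3 and Ssr4 at 115 ± 26.9. These neighbours did not differ beyond their spread. Ddit3, at 73.7 ± 19.9 CPM per kb, closed the group of abundant members. The next was Creld2 at 43.2 ± 7.08, a gap larger than either gene's SD. A further such gap separated Dnajc3 at 15.6 from Sel1l at 9.08 CPM per kb. The lowest were Chac1 at 1.25, Hyou1 at 1.07 and Trib3 at 0.235 CPM per kb. Ddit3 thus stood well above Trib3 and Chac1, which are targets of the same pathway, in both populations.

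Members with and without an ER stress response element are set side by side as a description, with no test. The 9 with an element had 4 positive and 5 negative values and a median of 0.00. The 17 tested members whose window held none had 5 positive and 12 negative values and a median of -0.18. Among those with an element, the values ran from -0.54 for Pdia6 to 0.29 for Hspa5, with Hsp90b1, the promoter with 2 elements shown above, at -0.21.

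Other genes of the pathway were taken from a list of 122, of which 98 were tested. In Chat-pos 2 of them were higher and 3 lower, with a median of -0.11, and the background rates were the 3.62% and 2.87% given above. Emc2, a subunit of the ER membrane protein complex that inserts transmembrane segments, stood at 69.8, 149, 227 and 202 CPM in Chat-neg and 303, 323, 317 and 488.5 CPM in Chat-pos. Selenok, selenoprotein K of the ER membrane, stood at 314, 387, 396 and 478 CPM in Chat-neg and 779, 719.9, 626 and 778 CPM in Chat-pos. The groups did not overlap for either gene. Emc2 rose by 1.04 ± 0.24 (edgeR adjusted p = 0.00914) and Selenok by 0.86 ± 0.20 (edgeR adjusted p = 0.00849), and each lost the call only without Chat-neg replicate 2, with adjusted p-values of 0.0655 and 0.0613.

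Lower in Chat-pos were Krtcap2 and Rpn1, subunits of the oligosaccharyltransferase that glycosylates proteins as they enter the ER, and Hspa13, an HSP70 family member. Krtcap2 fell by 1.00 ± 0.21 (226 to 116 CPM, edgeR adjusted p = 0.00353). It passed in all 8 fits that left out 1 library. With no filter on low counts it did not pass, and with both Paneth-rich Chat-pos libraries out it was at -0.64 with an adjusted p of 0.201. Rpn1 (174 to 112 CPM, edgeR adjusted p = 0.0429) and Hspa13 (14.1 to 4.32 CPM, edgeR adjusted p = 0.0429) passed in 1 of 8 such fits each. Hspa13 rested on 1, 13, 12 and 11 counts in Chat-neg and 7, 6, 11 and 12 counts in Chat-pos. It passed the filter on low counts through the Chat-neg libraries alone. The filter thus favoured a lower value in Chat-pos, and the call of Hspa13 is not independent evidence of that direction. Without Chat-neg replicate 2, 0 of the other pathway genes were higher and 1 was lower, and the lower count was 0 with both Paneth-rich libraries out and 8 with total count scaling.

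The 11 sensors and regulators of the response had 8 members tested and 0 called (edgeR, 2 at an unadjusted p under 0.05), with a median of -0.18. Of 28 further ATF4 targets 14 were tested and 0 called (edgeR, 5 at an unadjusted p under 0.05), with 11 negative values and a median of -0.33. The signal recognition particle and its receptor had 7 of 8 tested, 0 called (edgeR, 0 at an unadjusted p under 0.05) and a median of 0.25. An edgeR unadjusted p under 0.05 was found for 25% of the tested sensors and 35.7% of the tested ATF4 targets, against 20.8% of all genes tested. Negative values made up 78.6% of the tested ATF4 targets, against 51.5% of all genes tested.

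Markers of other secretory cells, which carry much ER, varied between libraries. Goblet cell markers summed to 524, 1094, 5526 and 2169 CPM in Chat-neg and 486.5, 1574, 904 and 307.6 CPM in Chat-pos, and 1 of 7 tested was lower in Chat-pos. Paneth cell markers summed to 791, 3518, 745 and 1178 CPM in Chat-neg and 613, 57600, 31350 and 486 CPM in Chat-pos, with 0 of 8 called (edgeR, 3 at an unadjusted p under 0.05). Over all genes tested, edgeR called 3.62% higher and 2.87% lower, and 20.8% had an unadjusted p under 0.05. Plasma cell markers summed to 8.02 to 47.1 CPM in Chat-neg and 5.599 to 23.3 CPM in Chat-pos, with Tnfrsf17 at 0 in Chat-neg and Mzb1 and Cd79a at 0 in Chat-pos. T cell markers summed to 175 to 356.5 CPM in Chat-neg and to 6.22, 287, 10.4 and 6.31 CPM in Chat-pos. Enteroendocrine markers summed to 582 to 1406 CPM in Chat-neg and 1216 to 1925 CPM in Chat-pos. Of these only Sct was tested, and it was higher in Chat-pos (edgeR adjusted p = 0.0155). Sct made up most of these sums, with means of 797 CPM in Chat-neg and 1452 CPM in Chat-pos. Among the markers that did not pass the filter, Chga, Chgb, Neurod1, Gcg, Cck and Tph1 had lower means in Chat-pos, and Gip a higher one. Chgb stood at 345 CPM in Chat-neg replicate 4 and at 8.92 CPM or less elsewhere. Enterocyte markers summed to 21440 to 45840 CPM in Chat-neg and 33360 to 54960 CPM in Chat-pos. Crypt stem and progenitor markers summed to 256, 351.6, 120.9 and 1029 CPM in Chat-neg and 156.1, 624.5, 1138 and 167 CPM in Chat-pos.

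Across the 30 tested members, Chat-neg replicate 1 was the lowest library for 12. Chat-neg replicate 3, the deepest Chat-neg library and the one with the highest goblet marker sum, was the highest for 9. The Paneth-rich Chat-pos replicates 2 and 3 were the highest for 1 and 2 members. With both left out, 0 members passed in either direction. The part of goblet and other cells in the members' values was not tested beyond leaving out these libraries.

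**Figure D5:**
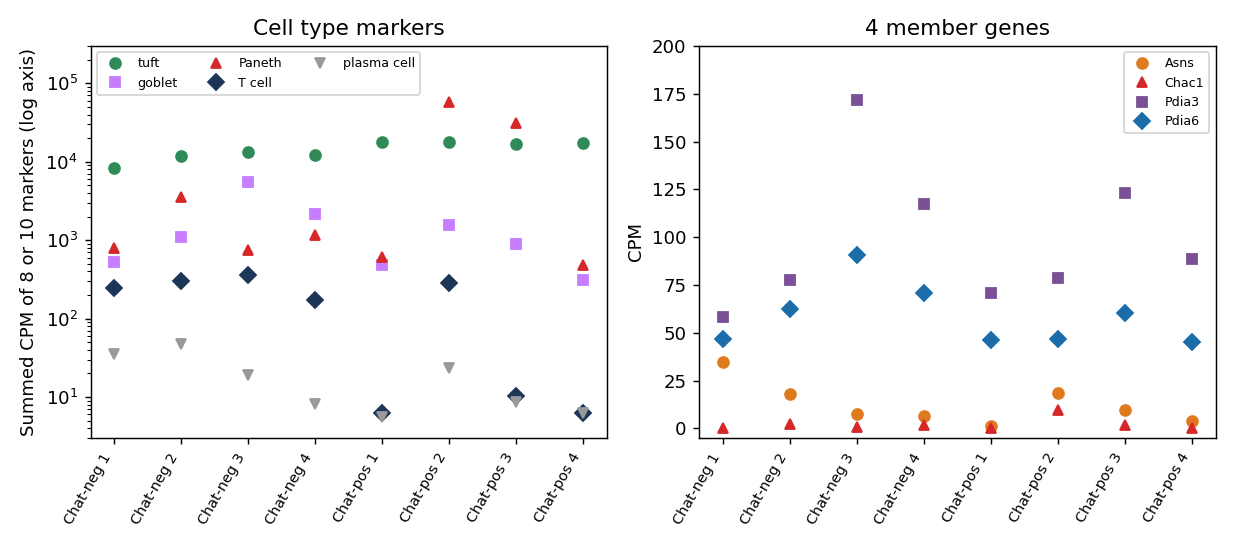
Summed CPM of marker lists for tuft, goblet, Paneth, plasma and T cells by library (left, log scale), and CPM of Asns, Chac1, Pdia3 and Pdia6 in the same libraries (right). The Paneth sum of Chat-pos replicates 2 and 3 (57600 and 31350 CPM) and the goblet sum of Chat-neg replicate 3 (5526 CPM) stand above the rest.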

How the data were processed

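Small-intestinal tuft cells of 8 mouse samples (4 Chat-neg, 4 Chat-pos) were sorted into lysis reagent, amplified with the SMARTer v4 chemistry and made into Nextera XT libraries read as single reads of 74 cycles, per the labels' protocols. The authors deposited 1 table of raw counts per gene made on GRCm38, a build named by the submitters' processing notes. Which aligner, counter and gene models they used is not given in the sources used here. The kit does not mark strand and no molecular identifiers are recorded, so overlapping genes (Ddit3, Dnajb9, Hsp90b1, Manf, Pdia3, Pdia4, Pdia6, Sec61a1, Spcs1, Spcs3, Ssr2 and Syvn1 among the members) are uncertain. Limits set by a count of 0 cover counting error only, while the intervals of differences rest on the spread between libraries.

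Of 53806 rows, 36 had no gene name and were left out. They held 67.8 to 88.4% of counts in Chat-neg and 58.6 to 64.6% in Chat-pos. A further 229 rows sharing 114 symbols were summed, leaving 53655 symbols. Coordinates and exon lengths were taken from GENCODE M21. The test was that of edgeR 4.0.16 under R 4.3.3 (filterByExpr, TMM scaling, glmQLFit and glmQLFTest, Benjamini-Hochberg adjustment over 8919 genes) on the 8 libraries without covariates. CPM values use TMM-scaled library sizes. The procedure was tested on simulated data, where most changes of 2-fold or less were missed. The 17 alternatives were other scalings (total count, RLE, upper quartile), other tools (limma-voom from limma 3.58.1, DESeq2 1.42.0), dropping the filter or asking for 5 CPM in 4 libraries, a replicate block, leaving out each library and leaving out both Paneth-rich libraries.

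All members were accounted for. By rule, library values were given in each role for the 2 members of highest mean CPM and the 2 of smallest p, and other pathway genes were named where they passed an adjusted p under 0.05, at most 6 per list. The members and lists were chosen with earlier results of these data known.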

Additional observations from a re-analysis of the deposited data

Results flagged for a closer look

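In 86 groups of 4 libraries, for members and summed roles, 6 held a library far from the other 3, and chance gives about 1 in 20 such groups. Manf in Chat-pos replicate 4 stood at 168.7 CPM above 3 values near 105 CPM. Pdia6 in Chat-pos replicate 3 stood at 60.49 CPM above the rest of its group. Edem1 in Chat-neg replicate 1 stood at 34.9 CPM, from 3 counts, and Trib3 in Chat-neg replicate 4 at 1.605 CPM, from 1 count, with 0 in the others. Within Chat-pos the chaperone sum was highest in replicate 4, at 1772 CPM, and within Chat-neg the degradation sum was lowest in replicate 1, at 221 CPM.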

How the results depend on the processing

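Counts of 0 members higher and 0 lower held under all 17 alternatives, and the lowest adjusted p of any member was 0.0513. Of 510 member values, 60 lay on the other side of 0, from 17 members whose main values were 0.35 or less in size, and the cause was not tested. Stress minus constitutive median difference, 0.02 as reported, ran from -0.19 (without Chat-neg replicate 4) to 0.12 (without Chat-pos replicate 4). Over all genes, 256 were lower as reported, against 143 without a filter, 402 with limma-voom and 86 with both Paneth-rich libraries out. Leaving out 1 library gave 138 to 360 higher and 110 to 309 lower genes, lowest in both cases without Chat-neg replicate 2. Total count scaling moved the split from 323 higher and 256 lower to 225 and 380, and the median of all genes to -0.14. With no filter that median was -0.35. The members' median, -0.13 as reported, ran from -0.245 with total count scaling to 0.136 with no filter. It was 0.027 with both Paneth-rich libraries out, so its sign depended on the processing.

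The labels number replicates 1 to 4 in both groups. With the replicate block 0 members were called, and 290 genes were higher and 230 lower. Same-numbered libraries deviated with correlations of -0.0233 to 0.0535, and 3 of 8 libraries correlated best with their own number, so the numbers were not treated as pairs. Depth limits Chat-neg replicate 1 most, where 3 counts are 34.9 CPM.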

Other observations

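Beyond the members, 40 other genes held an ERSE or ERSE-II motif in a RefSeq promoter window. Of these 34 were in the count table and 12 were tested, with 0 higher and 1 lower in Chat-pos, 4 at an unadjusted p under 0.05 and a median of 0.01. The 1 called gene was Krtcap2. Over all genes tested, edgeR called 2.87% lower, and 20.8% had an unadjusted p under 0.05. Lgalsl, a galectin-related gene, stood at 11.8 ± 0.770 CPM in Chat-neg and 4.18 ± 1.96 CPM in Chat-pos (-1.53 ± 0.55, edgeR adjusted p = 0.0944). Esp16, of the exocrine gland peptide family, stood at 4.04 ± 3.81 and 73.2 ± 79.1 CPM (3.68 ± 1.16, edgeR adjusted p = 0.139). Canx, which encodes calnexin, the membrane-bound partner of calreticulin, stood at 231 ± 34.7 CPM in Chat-neg and 169.9 ± 42.0 CPM in Chat-pos (SD, n = 4 each). Its difference of -0.47 ± 0.21 was not called (edgeR adjusted p = 0.189). Nucb1, a calcium-binding protein of the Golgi, stood at 166 ± 29.8 and 212 ± 23.6 CPM (0.31 ± 0.20, edgeR adjusted p = 0.405). These genes were picked by sequence, and Lgalsl, Esp16, Canx and Nucb1 were named after their values were seen.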
